A study of Homo sapiens with 22 samples.

Results

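The DDX4 hybrid, a form of ARID1A that carries a disordered stretch named for DDX4, was compared with the empty vector for where a pair of BAF subunits lay on chromosomes 1 to 22. The cells were AN3CA, an established line from a human endometrial carcinoma, and all groups were this line with a different construct: the DDX4 hybrid, wild-type ARID1A (WT), the CBR truncation, the ARID domain mutant DBDmut, the delIDR1 truncation, or the empty vector (Empty). A BAF site was a SMARCA4 peak that shared at least 1 bp with a SMARCC1 peak of the same library pair. Such sites of DDX4 and of both Empty replicates were joined into 8011 loci, of which 4671 held a DDX4 site, 7350 an Empty site and 3099 a site of both Empty replicates. Of the 22 libraries in the series, 6 set these classes: 1 DDX4 and 2 Empty libraries for each subunit. The labels give neither the promoter behind the constructs, nor whether a line is 1 clone, nor whether replicates are separate cultures, and no library measures how much of a construct was made.

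BAF (SWI/SNF) complexes use ATP to slide and evict nucleosomes, and they act largely at promoters and enhancers. SMARCA4 is the ATPase that drives this, SMARCC1 is a core scaffold subunit shared by several forms of the complex, and ARID1A is a large subunit specific to canonical BAF, with an ARID domain that binds DNA and long disordered stretches. DDX4 is a germ-cell RNA helicase whose disordered end forms droplets, which makes it a common donor of such a stretch in hybrid proteins. CUT&Tag tethers a transposase to an antibody in nuclei, so that DNA near the target is cut out and sequenced. Peaks of both subunits at a locus do not show which BAF form was there. H3K27ac marks active promoters and enhancers, and the HA library reads the tag on the hybrid itself.

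Peak names begin with a stamp whose meaning the labels do not give. All DDX4 libraries had 1 stamp, Empty replicate 2 had another, and Empty replicate 1 shared the third with WT and the other constructs, so stamp and DDX4 cannot be told apart. Depth was estimated from the lists as background fragments per kb. For SMARCA4 it was 1.22 in DDX4, against 1.23 and 1.95 in Empty replicates 1 and 2, with 1.53 in WT. For SMARCC1 it was 1.40 in DDX4, against 2.10 and 2.45 in Empty, with 3.28 in WT. DDX4 was therefore close to Empty replicate 1 for SMARCA4 and below every Empty library for SMARCC1. The HA library was shallow, at 0.462 fragments per kb.

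The hybrid cells had SMARCA4 peak numbers within the Empty range and fewer SMARCC1 peaks than either Empty replicate. SMARCA4 gave 8614 peaks in DDX4, against 5453 and 9210 in the Empty replicates (7331.5 ± 2657, SD, n = 2). SMARCC1 gave 9489 peaks in DDX4, against 13336 and 15126 in Empty (14231 ± 1266, SD, n = 2), a difference of -4742 peaks that moved with the lower SMARCC1 depth above. The part of depth in that difference was not tested. With 1 library against 2, a two-sided exact permutation test over the 3 possible labelings cannot give a p below 0.333, so peak numbers carry no test. Without Empty replicate 1 the SMARCA4 difference turned to -596 peaks, against 1282.5 with both replicates and 3161 without replicate 2.

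The subunits also paired differently within each library pair. In DDX4, 4703 SMARCA4 peaks (54.6%) met a SMARCC1 peak, against 4101 (75.2%) and 6468 (70.2%) in Empty replicates 1 and 2. Seen from SMARCC1, 51.1% of DDX4 peaks met a SMARCA4 peak, against 30.5% and 42.9% in Empty. The share of SMARCA4 peaks in pairs was thus lower in DDX4 than in either Empty replicate and the share of SMARCC1 peaks higher, while the SMARCC1 list of DDX4 was also the shortest of the 3. Other constructs had such shares as well: CBR paired 47.7% of SMARCA4 and 51.0% of SMARCC1 peaks, and DBDmut 65.1% and 51.9%.

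Nearly all BAF loci of the hybrid cells had been occupied, at least in part, in Empty cells. Of the 4671 DDX4 loci, 2593 (55.5%, Wilson 95% interval 54.1 to 56.9) had a BAF site in both Empty replicates and are called shared. Another 1417 (30.3%) had one in a single Empty replicate, and 602 (12.9%) met Empty peaks but no Empty BAF site. The last 59 (1.26%, 0.981 to 1.63) overlapped nothing that Empty had for these subunits, in replicate 1 or 2, and form the DDX4-only class. Such intervals cover counting error alone. Over all DDX4 loci the background share of this call is by construction that same 1.26%.

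**Figure D1:**
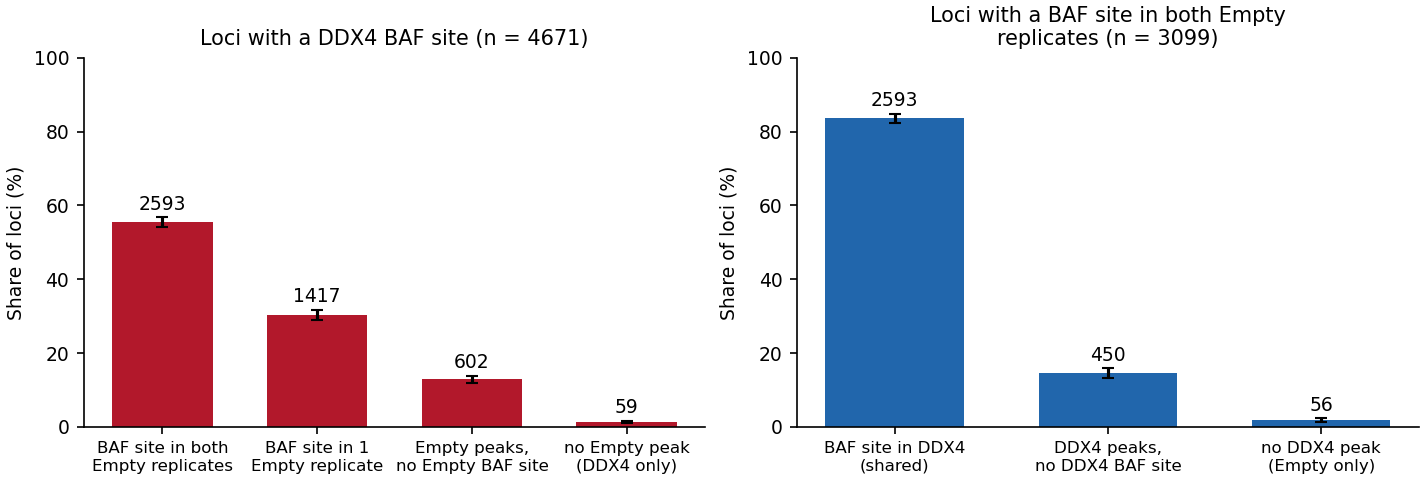
Share of BAF loci in each class (y axis, percent), with the number of loci above each bar and Wilson 95% intervals, for loci with a DDX4 site (left) and loci with a site of both Empty replicates (right). The DDX4-only and Empty-only bars hold 59 and 56 loci, beside 2593 shared loci.

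Loci that fell between the classes mostly lacked a SMARCA4 peak in Empty rather than both subunits. Of the 1417 loci found with 1 Empty replicate, 1132 had the site in replicate 2 and 285 in replicate 1. At 994 of the 1132 (87.8%) replicate 1 had SMARCC1 without SMARCA4, and at 256 of the 285 (89.8%) replicate 2 did. Among the 602 loci with Empty peaks but no Empty BAF site, SMARCC1 stood alone at 433 in replicate 1 and at 475 in replicate 2, while SMARCA4 stood alone at 38 and 61. SMARCC1 lists were longer than SMARCA4 lists in both Empty replicates, by more than in DDX4.

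In the other direction, the loci that both Empty replicates held were mostly present with the hybrid. Of these 3099 loci, 2593 (83.7%, 82.3 to 84.9) had a DDX4 site and 450 (14.5%) had DDX4 peaks that made no BAF site, with SMARCA4 alone at 245 and SMARCC1 alone at 196. The remaining 56 (1.81%, 1.39 to 2.34) met no DDX4 peak of either subunit and are called Empty only. That share is likewise its own background. Of the loci with a site of 1 Empty replicate and none of DDX4, 1804 met DDX4 peaks without a DDX4 site and 1030 met none, and 795 of the 1030 came from replicate 2.

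The counts of one-sided loci rested on having both Empty replicates. Without Empty replicate 1, 132 DDX4 sites would count as DDX4 only, and without replicate 2, 282 would. Empty-only sites numbered 855 without replicate 1 and 312 without replicate 2. Between libraries taken as pairs, 282 of 4703 DDX4 sites (6.0%) had neither subunit's peak in Empty replicate 1 and 132 (2.81%) had none in replicate 2. The Empty replicates also differed from each other: 4.15% of replicate 1 sites were absent from replicate 2, and 15.2% of replicate 2 sites were absent from replicate 1. Empty sites absent from DDX4 made up 7.61% in replicate 1 and 13.2% in replicate 2.

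**Figure D2:**
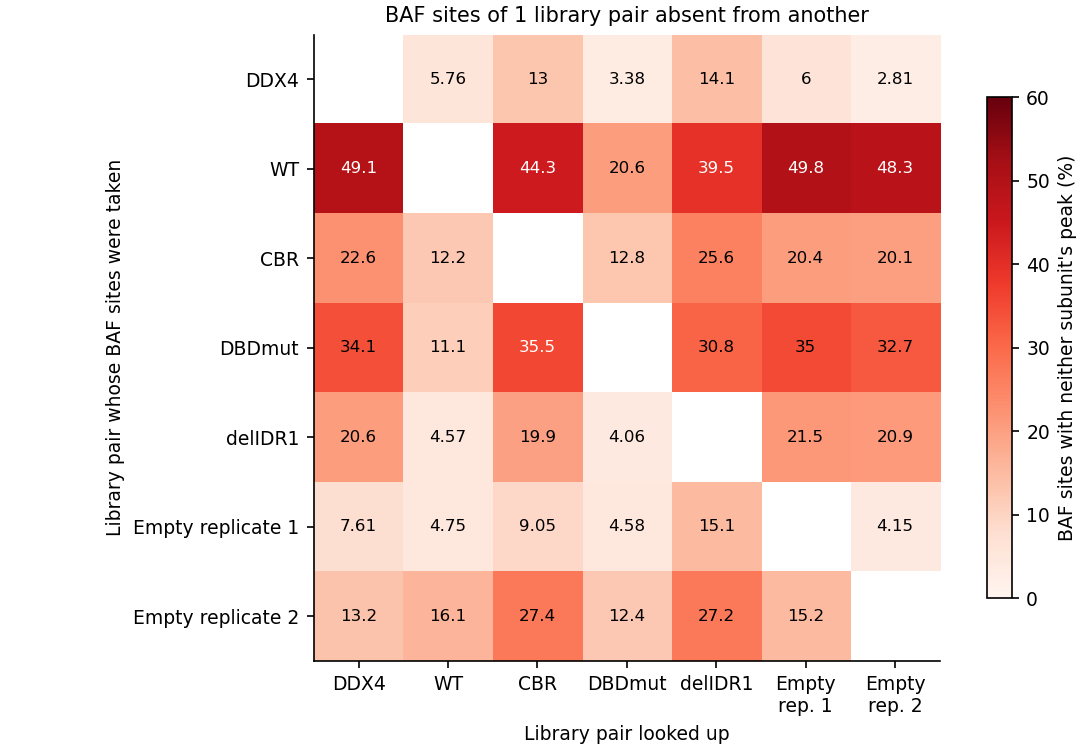
Percent of the BAF sites of 1 library pair (rows) that met neither a SMARCA4 nor a SMARCC1 peak of another pair (columns), also given by colour. The DDX4 row holds 6.0% and 2.81% for the Empty replicates and 5.76% for WT, while the WT row holds 49.1% for DDX4.

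Longer lists find more, so the pairwise shares were also taken from lists cut to 5453 SMARCA4 and 9489 SMARCC1 peaks. Then 5.41% and 3.43% of DDX4 sites were absent from Empty replicates 1 and 2, against 5.79% of replicate 1 sites absent from replicate 2 and 8.81% the other way. From the Empty side, 7.69% of replicate 1 sites and 7.73% of replicate 2 sites were absent from DDX4. The shares between DDX4 and Empty thus overlapped those between the Empty replicates. WT, looked up in DDX4 at the same list lengths, lacked a DDX4 peak at 35.3% of its sites, and 16.9% of DDX4 sites were absent from WT.

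The other ARID1A forms, counted by the same rule against the same Empty libraries, gave larger shares of sites that Empty lacked. The share was 1.26% of loci for DDX4, 13.7% for CBR, 18.1% for delIDR1, 29.1% for DBDmut and 45.9% for WT, where 4322 of 9410 loci met no Empty peak. The share of both-Empty loci without any peak was 1.81% for DDX4, 1.42% for DBDmut, 2.01% for WT, 5.06% for CBR and 8.20% for delIDR1. All of these comparisons share the Empty libraries, each construct was 1 library per antibody, and none was tested against another. Lists were not cut to equal length here. WT had 12720 SMARCA4 and 23364 SMARCC1 peaks and DBDmut 14849 and 18427, against 8614 and 9489 in DDX4. CBR had 12616 and 11744, and delIDR1 7011 and 10273.

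The median shared locus lay in the upper part of every list, and the order of shared loci was similar between lists. The class requires a call in every list that set the classes, so high ranks are partly built in. Each peak carries the authors' fold enrichment over local background and -log10 q, which describe it within its own list, and the fragments stacked at the summit (the pileup) were recovered from these. In the DDX4 lists the median pileup at shared loci was 24 for SMARCA4 and 19 for SMARCC1, with median ranks at 18.9% and 22% of each list. In Empty replicates 1 and 2 the median ranks were at 31.7% and 19.4% for SMARCA4, and at 15.7% and 12.3% for SMARCC1. Median pileups in Empty replicates 1 and 2 were 15 and 24 for SMARCA4, and 28 and 36 for SMARCC1. Pileups were not scaled for depth or background between libraries. The median folds were 9.58 in DDX4 against 8.63 and 9.32 in Empty for SMARCA4, and 9.78 against 10.9 and 10.2 for SMARCC1. Across the 2593 loci, Spearman's rho of -log10 q between DDX4 and Empty replicates 1 and 2 was 0.61 and 0.68 for SMARCA4, against 0.53 between the Empty replicates. For SMARCC1 it was 0.74 and 0.71, against 0.74 between the Empty replicates. These correlations run across loci that share library, depth and mappability, and are descriptions.

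Within shared loci the summits lay close together. The SMARCA4 summit of DDX4 lay a median of 40 bp from that of Empty replicate 1 and 42 bp from that of replicate 2, against 44 bp between the Empty replicates. For SMARCC1 the distances were 28 and 35 bp, against 30 bp. WT had both subunits at 2237 of the 2593 shared loci (86.3%, 84.9 to 87.5), SMARCC1 alone at 332, SMARCA4 alone at 7 and neither at 17. Both subunits were found in all 4 other constructs at 1677 shared loci (64.7%).

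Nearly all shared loci were acetylated in each of the libraries compared. An H3K27ac peak lay on 97.7% of them in DDX4, against 97.4% and 98.3% in Empty replicates 1 and 2, and on 97.5% in WT. Only 13 of the shared loci had H3K27ac in both Empty replicates and none in DDX4. The hybrid itself, read by HA, had a peak at 1837 of them (70.8%, 69.1 to 72.6), with a median of 14 stacked fragments. The HA library has no counterpart in Empty cells here, so the level of HA peaks without a tagged protein was not measured.

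The strongest shared loci, chosen by the smallest summed rank in the DDX4 lists, were places with very high pileups in every library. At the first, on chromosome 13 from 110076478 to 110076688 (hg19, as all positions here), SMARCA4 stacked 1009 fragments in DDX4, against 1061 and 988 in the Empty replicates, and 785 in WT. SMARCC1 stacked 726 there in DDX4, against 855 and 921 in Empty, and 987 in WT. The DDX4 and WT values were thus of the same order as those of Empty, and the DDX4, DBDmut and delIDR1 H3K27ac lists had no peak there. The second, on chromosome 1 from 121484065 to 121485424, had 983 SMARCA4 fragments in DDX4, against 961 and 1543 in Empty. A locus on chromosome 5 from 10028 to 11765 lies next to the start of the sequence and had 832 in DDX4, against 900 and 1416 in Empty.

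The other 7 were chr11:10530290-10531544, chr5:79946328-79947709, chr5:134259573-134260394, chr1:567208-568301, chr12:133841524-133841891, chr17:22020557-22020890 and chr19:27731889-27732802. Across the 10 loci the DDX4 pileups ran from 406 to 2206 for SMARCA4 and from 318 to 1216 for SMARCC1. That these lie far above the class medians is largely built in by the choice on DDX4 rank. All 10 had both subunits in every other construct and an HA peak, but only 6 had H3K27ac in DDX4, against 8 in each Empty replicate. The count was 9 in WT, 7 in CBR, 6 in DBDmut and 7 in delIDR1. All of these are smaller parts than among shared loci as a whole. Regions prone to artefacts were not filtered out, and whether these loci count among them was not tested. Shared loci also held the only runs of 3 or more loci less than 12.5 kb apart, 18 runs with 71 loci, and the longest run had 10 loci on chromosome 2 from 92281271 to 92325946.

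Loci in the middle of the shared class were picked after the values were seen, as the 5 around its median summed rank. The locus on chromosome 16 from 58663816 to 58664469 had 24 SMARCA4 and 16 SMARCC1 fragments in DDX4, against 17 and 26 in Empty replicate 1 and 21 and 32 in replicate 2, and 10 and 29 in WT. On chromosome 2 from 88926979 to 88927721 there were 20 and 19 in DDX4, against 11 and 16 in Empty replicate 1 and 16 and 23 in replicate 2. Both had H3K27ac in all 7 H3K27ac libraries and an HA peak, as did the locus on chromosome 1 from 169455099 to 169455514. The other two had no HA peak. The locus on chromosome 6 from 99873002 to 99873853, with 17 and 24 fragments in DDX4, had H3K27ac in every library. The locus on chromosome 2 from 219134999 to 219135283, with 22 and 18 in DDX4, had no SMARCA4 in WT and no H3K27ac in CBR, DBDmut or delIDR1. The DDX4 pileups lie near the class medians and far below those of the strongest shared loci, which the choice by rank largely built in.

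The 59 DDX4-only loci were weak in the DDX4 lists themselves. Their median pileup was 7 fragments for SMARCA4 and 8 for SMARCC1, at the 76.5% and 71.2% points of the lists, and the highest were 26 and 24. A -log10 q of at least 5 for both subunits held at 18 of the 59 (30.5%), against 2451 of the shared loci (94.5%), and 1 of the 59 reached 10. They were also narrow, with a median width of 225 bp, against 507 bp for shared loci, which are joined from DDX4 and Empty sites. DDX4 SMARCA4 peaks alone had a median width of 225 bp at DDX4-only loci, against 398 bp at shared loci. Along the strength of DDX4 loci, cut into 5 equal groups (quintiles) by summed rank, 0, 0, 2, 9 and 48 of them fell from the strongest to the weakest quintile. The part of low depth in these calls was not tested, since only called peaks were at hand and Empty signal below the threshold is unknown.

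**Figure D3:**
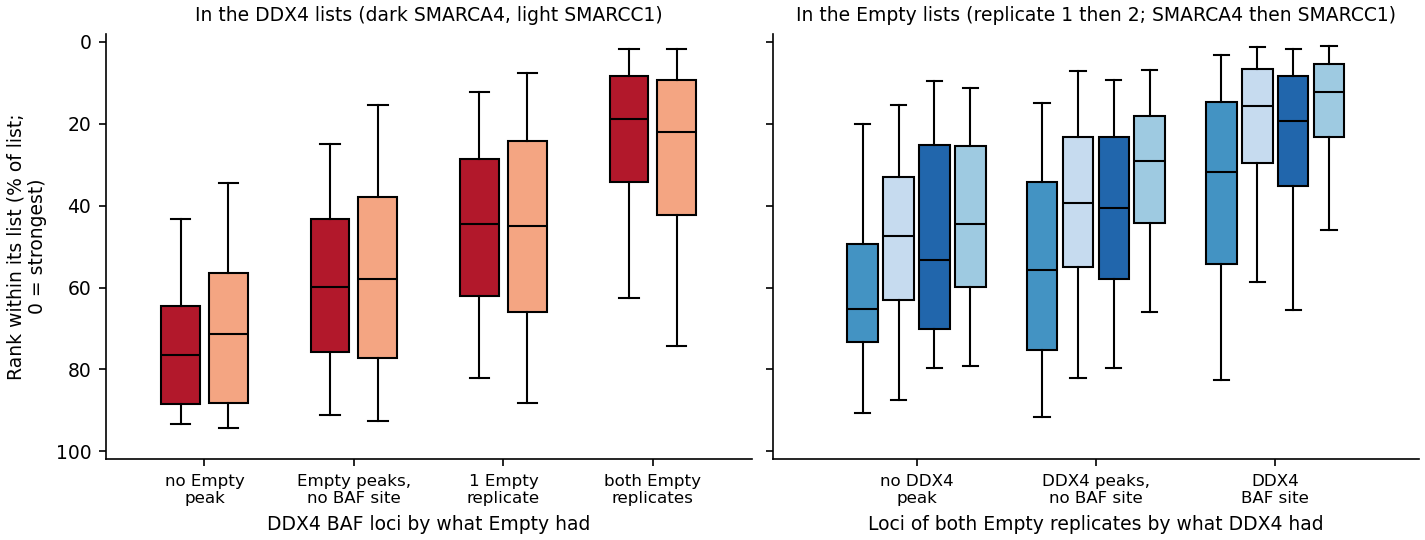
Rank of each locus within its list (y axis, percent of the list, 0 strongest; boxes show quartiles, whiskers the 5th to 95th percentiles) by class, in the DDX4 lists (left) and the Empty lists (right). DDX4-only loci have median ranks at 76.5% (SMARCA4) and 71.2% (SMARCC1) of the DDX4 lists, against 18.9% and 22% for shared loci.

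WT had both subunits at 19 of the 59 (32.2%, 21.7 to 44.9), SMARCC1 alone at 15, SMARCA4 alone at 4 and neither at 21 (35.6%). Over all DDX4 loci the same lookup gave both subunits at 68.6% and neither at 5.63%. WT had a SMARCA4 peak at 23 of the loci, with a median pileup of 12 and a median rank at 32.3% of the WT list. It had a SMARCC1 peak at 34, with a median pileup of 22 and a median rank at 17.3% of the list, in a library of 3.28 fragments per kb beside 1.40 in DDX4. With all lists cut to equal length, both subunits of WT were at 12.5% of DDX4-only loci. Among the 4 other constructs together, 7 of the 59 (11.9%) had both subunits in every one, against 64.7% of shared loci. Both were in none at 27 (45.8%, against 1.20%), and 8 met no peak of either subunit in any (13.6%, against 0.0386%). These shares were not counted over all DDX4 loci.

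DDX4-only loci were acetylated in most cases, but less often than DDX4 loci as a whole. H3K27ac lay on 49 of the 59 in DDX4 (83.1%, 71.5 to 90.5), against 41 (69.5%) and 51 (86.4%) in Empty replicates 1 and 2, and on 46 (78.0%) in WT. Over all DDX4 loci the shares were 96.4% in DDX4, against 94.6% and 97.9% in Empty, and 95.5% in WT. The DDX4 value at DDX4-only loci lies between the Empty values, whose H3K27ac libraries had 4.40 and 14.5 fragments per kb beside 6.05 in DDX4. Neither Empty replicate had the mark at 6 loci (10.2%, against 1.37% of all DDX4 loci), of which DDX4 had it at 2 and WT at 3. HA peaks lay on 12 of the 59 (20.3%, 12 to 32.3), against 55.1% of all DDX4 loci.

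Within the class, HA went with the WT lookup, as it did among shared loci. Of the 19 loci with both subunits in WT, 9 had an HA peak (47.4%, 27.3 to 68.3), and of the 21 with neither, 0 did, which allows up to 15.5% by the same interval. The DDX4 SMARCA4 median was 7 fragments in both sets, and the SMARCC1 median was 10 where WT had both and 7 where it had neither. Among shared loci HA lay on 74.1% where WT had both subunits and on 47.1% of the 17 where it had neither. The part of peak strength in these splits was not tested.

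**Figure D4:**
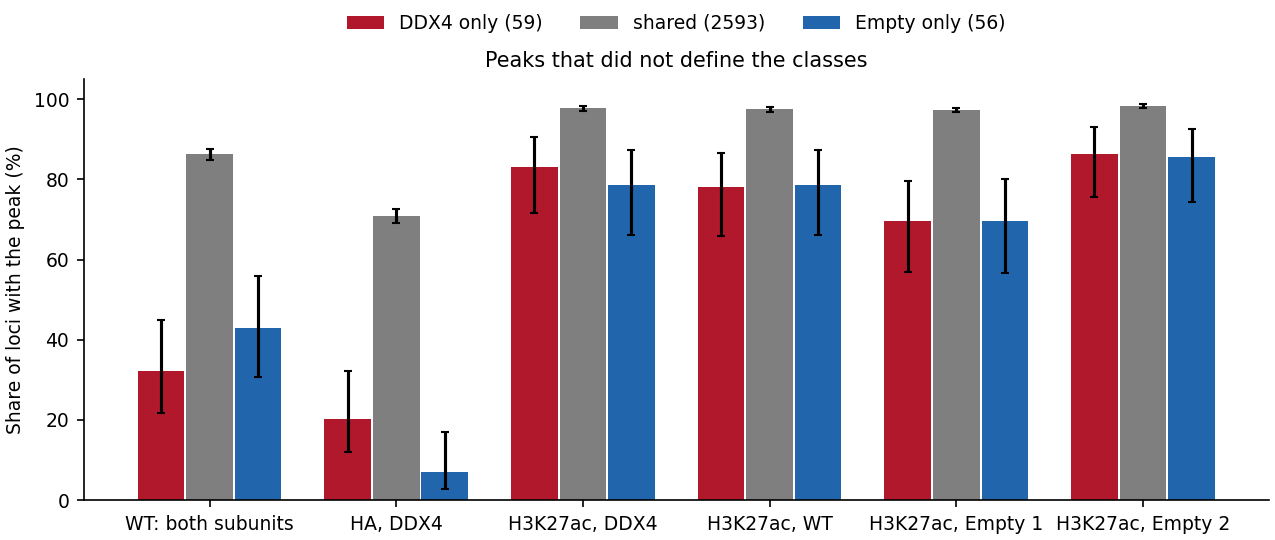
Share of DDX4-only, shared and Empty-only loci (red, grey, blue; y axis, percent, Wilson 95% intervals) that met peaks not used to define the classes. Both subunits of WT lay on 32.2%, 86.3% and 42.9% of the loci and HA on 20.3%, 70.8% and 7.14%, while H3K27ac ranged from 69.5% to 98.3%.

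The first of the 10 DDX4-only loci of smallest summed rank lay on chromosome 16 from 2014828 to 2015013. It had 26 SMARCA4 and 20 SMARCC1 fragments in DDX4, with the authors' folds of 7.03 and 8.02, and no peak in Empty, WT, CBR or delIDR1. DBDmut had SMARCC1 there, H3K27ac was called in DDX4, both Empty replicates and WT, and HA was absent. This is the strongest locus of the class that WT lacked, and the only 1 of the 10 with neither subunit in WT.

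Of the others, 3 were among the strong WT sites. On chromosome 5 from 55972133 to 55972371 DDX4 had 14 SMARCA4 and 8 SMARCC1 fragments, where WT had 80 and 136 at ranks 69 and 54 of its lists. H3K27ac was called there in DDX4 and WT and in neither Empty replicate, and HA was present. On chromosome 6 from 91078771 to 91079004 DDX4 had 7 and 21 fragments, and WT had 40 and 75. On chromosome 5 from 98355905 to 98356413 DDX4 had 7 and 13, and WT had 28 and 68. At these 3 loci DDX4 pileups were below those of WT in both subunits, all 4 other constructs had both subunits, and HA was present. Depth in DDX4 was 1.22 and 1.40 fragments per kb, beside 1.53 and 3.28 in WT.

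The locus on chromosome 9 from 115629337 to 115629851 also had both subunits in every construct other than Empty and H3K27ac in all, Empty included, with 12 and 11 fragments in DDX4 and 13 and 26 in WT. The locus on chromosome 2 from 75904530 to 75904725 had 10 and 9 in DDX4 and 7 and 18 in WT, and that on chromosome 12 from 48109036 to 48109279 had 9 and 11, and 8 and 13. On chromosome 19 from 12992241 to 12992398, with 18 and 11 fragments in DDX4, WT had SMARCC1 alone, as it did on chromosome 6 from 52382466 to 52382690, with 11 and 10 in DDX4. H3K27ac was present in both Empty replicates at all 5 of these loci, and in DDX4 at all but the locus on chromosome 12.

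The ninth locus, on chromosome 1 from 27106297 to 27106997, was wide, at 701 bp, and met peaks of every DDX4 antibody. DDX4 had an H3K27ac peak there of 1615 bp, from 27105602 to 27107216, with 119 stacked fragments and a fold of 6.61. Within it lay 11 SMARCA4, 24 SMARCC1 and 18 HA fragments at the highest summits. Peaks of H3K27ac with nearly the same ends, between 1535 and 1616 bp wide, were called in WT (52 fragments), CBR (390), DBDmut (52) and delIDR1 (81). Empty replicate 1 had none, and Empty replicate 2 had a narrower one of 1183 bp with 35 fragments in a library far deeper than the rest. CBR, DBDmut and delIDR1 had both subunits there, WT had SMARCC1 alone, and neither Empty replicate had either. As background from general knowledge, with no hg19 annotation used, this stretch belongs to the ARID1A gene itself, a form of which every construct but Empty encodes. Fragments from an introduced copy and from the chromosomal gene cannot be told apart in these lists.

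DDX4-only loci were spread over the genome, with no 2 of them less than 12.5 kb apart. Their nearest SMARCA4 or SMARCC1 peak of Empty lay a median of 27673 bp away, and within 1 kb at 6 of them. Chromosome 12 held 9 of the 59 (15.3%), beside 5.57% of all DDX4 loci, a difference noticed after the values were seen. The 8 loci with no peak of any other construct began, in order of summed rank, with chromosome 2 from 203776935 to 203777164, which had 11 and 9 fragments. An Empty peak lay 224 bp from it, and every H3K27ac library had a peak there. Empty peaks also lay 215 bp from chr16:84918305-84918623 and 20 bp from chr12:54601437-54601701, and 12638 bp or more from the others. With only DDX4 as a source, these 8 have no second construct behind them.

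The 56 Empty-only loci stood higher in their own lists than DDX4-only loci did in theirs. In Empty replicate 1 their median pileups were 10 for SMARCA4 and 15 for SMARCC1, and in replicate 2 they were 15 and 21. The medians of shared loci in the same lists were 15 and 28, and 24 and 36. By quintiles of the both-Empty loci, 2, 1, 2, 7 and 44 of them fell from the strongest to the weakest. This class required calls in 4 libraries and DDX4-only loci calls in 2, so the classes do not ask the same of a locus.

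WT had both subunits at 24 of the 56 (42.9%, 30.8 to 55.9), SMARCC1 alone at 23, SMARCA4 alone at 0 and neither at 9 (16.1%). Over all both-Empty loci the lookup gave both subunits at 81.3% and neither at 62 of 3099. A count of 0 allows up to 6.42% by the same interval. The share with both fell to 24.4% with lists of equal length, and was 16.0% without Empty replicate 1 and 31.4% without replicate 2. Both subunits were found in CBR at 30 of the 56 (53.6%), in DBDmut at 27 (48.2%) and in delIDR1 at 17 (30.4%). Over all both-Empty loci these shares were 80.2%, 91.2% and 69.1%. No peak of any of the 4 other constructs was met at 1 locus. Most loci that DDX4 lacked were thus occupied by at least 1 subunit with another ARID1A form. CBR, DBDmut and delIDR1 had both subunits there less often than at all both-Empty loci.

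Acetylation at Empty-only loci in DDX4 lay between the Empty replicates. H3K27ac lay on 44 of the 56 in DDX4 (78.6%, 66.2 to 87.3), against 39 (69.6%) and 48 (85.7%) in the Empty replicates, and on 44 in WT. Over all both-Empty loci the shares were 96.5% in DDX4, against 95.6% and 97.5% in Empty, and 96.0% in WT. Neither Empty replicate had it at 8 loci (14.3%, against 1.77% of all both-Empty loci). DDX4 and WT had it at 0 of these 8, which allows a share of up to 32.4%. HA lay on 4 of the 56 (7.14%, 2.81 to 17.0), against 64.1% of all both-Empty loci. H3K27ac was called in both Empty replicates and not in DDX4 at 4 loci (7.14%, against 0.807% of all both-Empty loci).

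The first Empty-only locus by summed rank stood apart from the others. On chromosome 17 from 33478119 to 33478328, SMARCA4 stacked 84 and 149 fragments in Empty replicates 1 and 2, at ranks 58 and 47, and SMARCC1 stacked 22 and 40. WT had 71 and 26 fragments there, at SMARCA4 rank 61, CBR had both subunits, and DBDmut and delIDR1 had SMARCA4 alone. DDX4 had no peak of either subunit, and its nearest lay 87347 bp away. No H3K27ac library had a peak there and neither did HA. A second locus without acetylation in any construct lay on chromosome 9 from 72653114 to 72653524, with SMARCA4 at 9 and 19 and SMARCC1 at 12 and 18 in Empty, and 13 and 9 in WT.

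Of the 10 named Empty-only loci, 3 had a DDX4 peak close by without touching it. The locus on chromosome 19 from 27739916 to 27740259 had 55 and 101 SMARCA4 fragments in Empty and a DDX4 peak 269 bp away, that on chromosome 10 from 42545860 to 42546322 had 27 and 61 and a DDX4 peak at 586 bp, and that on chromosome 10 from 91020270 to 91020448 had 12 and 14 and one at 1142 bp. At the locus on chromosome 19 the SMARCA4 folds were only 4.83 and 3.76. Outside the named loci, chromosome 2 from 92313793 to 92314201 had 51 and 95 SMARCA4 fragments in Empty, at folds of 3.03 and 2.22. It lies within the longest run of shared loci. Regions prone to artefacts were not filtered out of this class either, and their part in it was not tested. Over the class, 10 of 56 lay within 1 kb of a DDX4 peak, and the median distance was 18650 bp. The remaining named loci were chr4:190756967-190757957, chr1:39456572-39456907, chr1:93811160-93811496, chr8:38561006-38561220 and chr14:74769405-74769776. Their SMARCA4 pileups ran from 7 to 32 in Empty, WT had SMARCC1 at all 5 and SMARCA4 at 3, and all 5 had H3K27ac in DDX4.

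Stronger loci were found more often in Empty, in WT and by HA. From the strongest to the weakest quintile of DDX4 loci, a site of both Empty replicates was found at 91.4%, 75.9%, 55.9%, 37.6% and 16.7%. Both subunits of WT went from 95.9% in the first quintile to 35.7% in the last, and HA from 85.3% to 27.2%. H3K27ac in DDX4 moved far less, with 97.2% in the first quintile and 93.6% in the last. From the side of Empty, the DDX4 site was found at 98.9%, 95.8%, 88.9%, 79.2% and 55.6% of the both-Empty loci. HA at the same loci was found at 89.5% in the first quintile and 37.3% in the last.

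**Figure D5:**
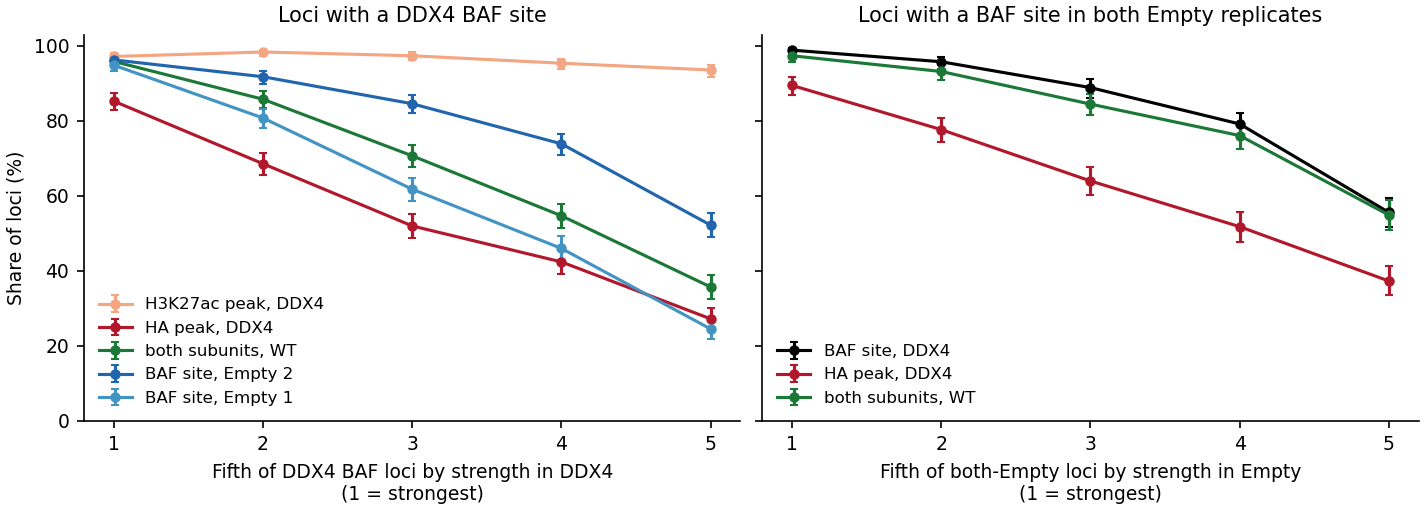
Share of loci (y axis, percent, Wilson 95% intervals) with each peak, by quintile of strength (x axis, 1 strongest), for loci with a DDX4 site ranked in DDX4 (left) and loci of both Empty replicates ranked in Empty (right). Sites of both Empty replicates were at 91.4% of the first and 16.7% of the last quintile of DDX4 loci, while H3K27ac stayed between 93.6% and 98.4%.

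Peaks of a single subunit made up the rest of the DDX4 lists, and there the overlap with Empty was smaller. DDX4 had 3911 SMARCA4 peaks without SMARCC1 (45.4% of the list), against 1352 (24.8%) and 2742 (29.8%) in the Empty replicates. Of the 3911, 39.1% met a peak of either subunit in Empty replicate 1 and 61.3% in replicate 2. Between the Empty replicates, 43.6% of such peaks of replicate 1 met a peak of replicate 2, and 17.3% of those of replicate 2 met one of replicate 1. Counting both Empty replicates, 1339 of the 3911 (34.2%) met no peak, and these had a median pileup of 5. SMARCC1 peaks without SMARCA4 numbered 4638 in DDX4, of which 53.5% met a peak in Empty replicate 1 and 53.0% in replicate 2, and 1541 (33.2%) met none in either. Lone peaks were therefore found again less often than BAF sites, both between DDX4 and Empty and between the Empty replicates.

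The lone DDX4 peaks that Empty lacked carried H3K27ac and HA less often than lone peaks that met an Empty peak. H3K27ac in DDX4 lay on 35.3% of the 1339 SMARCA4 peaks, against 87.7% of the lone SMARCA4 peaks that met an Empty peak. HA lay on 2.91% of them, against 25.4%. Of the 1541 SMARCC1 peaks, 36.5% had H3K27ac and 1.75% had HA, against 72.7% and 8.07% of those that met an Empty peak. H3K27ac of Empty replicates 1 and 2 lay on 25.2% and 47.7% of the 1339, and on 32.1% and 41.9% of the 1541. WT had a peak of either subunit at 13.1% of the 1339 and at 32.8% of the 1541. Counted by SMARCA4 peaks alone, 2778 loci would be DDX4 only and 382 Empty only, and by SMARCC1 alone 1744 and 2639. Those counts ask only that the same subunit's peak be absent on the other side. The DDX4-only and Empty-only loci above met no peak of either subunit there, so the counts follow unlike rules.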

How the data were processed

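Titles gave each library's construct and antibody. The submitters' processing notes name hg19 and bcl2fastq. What aligned the reads, called the peaks, handled duplicates or served as control was not given in the sources used here. Per the labels' protocols, libraries had 14 PCR cycles. The deposited lists have the 10 columns of narrowPeak, 1 list per library. The authors deposited for each peak a score, a fold enrichment (a ratio to local background), the -log10 of its p-value and that of its q-value, which is at least 2 (a q of 0.01) throughout.

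From these, the pileup at each summit and its background were recovered as the whole number whose Poisson tail matched the deposited p-value within 0.001, for at least 99.75% of peaks. The lowest background divided by the shortest peak gave fragments per kb, an estimate of relative depth; total fragment numbers are unknown. Overlaps needed 1 bp, shares have Wilson 95% intervals, and an exact permutation test of 1 DDX4 library against 2 Empty libraries cannot give a p below 0.333. Locus classes and pileups were first tested on simulated data. Members and lists were chosen with earlier results of these data known. Named loci are the 10 per class of smallest summed rank by -log10 q; other named loci were chosen after their values were seen.

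Alternatives were lists of equal length, a -log10 q of 5 or more, overlap over 50% or more of the shorter peak, a summit distance of up to 250 bp, either Empty replicate left out, all sequences, either subunit alone, and unmerged peaks. No hg19 genome or annotation was used here, so gene lists, distances to gene starts and motifs were not examined. Python 3.11.15, numpy 2.4.6, pandas 2.3.3, scipy 1.17.1 and matplotlib 3.10.9 were used.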

Additional observations from a re-analysis of the deposited data

How the results depend on the processing

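Of 108 recomputed values, 74 stayed within 1.5 times the count or within the counting interval, 33 moved and 1 turned its sign; the causes were not tested. Shared loci numbered 5860 by SMARCC1 alone. DDX4-only loci numbered 35 at a -log10 q of at least 5, 132 to 282 with 1 Empty replicate left out, and 2778 or 1744 by SMARCA4 or SMARCC1 alone. Empty-only loci numbered 312 to 855 with 1 replicate left out, and 382 or 2639 by either subunit alone. Counts by a subunit alone did not ask about peaks of the other subunit.

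Both subunits of WT lay on 69.9% of shared, 12.5% of DDX4-only and 24.4% of Empty-only loci with lists of equal length. For loci counted by SMARCA4 alone, a WT SMARCA4 peak lay on 80.9%, 15.9% and 56.0%. For loci counted by SMARCC1 alone, a WT SMARCC1 peak lay on 89.5% of shared and 59.8% of Empty-only loci. With 1 Empty replicate left out, both subunits of WT lay on 74.1% to 84.3% of shared loci. They lay on 26.2% to 34.1% of DDX4-only and 16.0% to 31.4% of Empty-only loci. H3K27ac in DDX4 lay on 87.7% of shared loci by summits, 95.9% by SMARCA4 and 93.2% by SMARCC1 alone, and on 63.5% or 40.9% of DDX4-only loci by either subunit. HA at shared loci was 67.3% at a -log10 q of at least 5 and by summits, 75.2% with equal lists, 65.4% or 45.5% by either subunit, and 63.2% to 66.6% with a replicate left out. The SMARCA4 peak difference ran from -596 to 3161.

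No paired analysis was possible because replicate numbers exist only for Empty. Each DDX4 value rests on 1 library, with its own stamp and the lowest SMARCC1 depth of the libraries that set the classes.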
